A study of Drosophila melanogaster with 15 samples.

Results

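The DSas-4 mutant, a fly strain described by its submitters as lacking centrosomes, was compared with the wild-type strains w67 and OregonR, each taken separately. All 3 arrays of each strain were used, 9 of the 15 arrays in the series, and they were chosen by the genotype in the sample labels. Of 11982 genes with a probe set of their own, 6973 passed a filter on low values (a log2 level of at least 4 on at least 3 of the 15 arrays) and were tested. A gene counted as changed, and is said here to have risen or fallen, when its limma adjusted p was under 0.05 in each of the comparisons, with w67 and with OregonR, and the sign was shared.

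The tissue was brain together with imaginal discs, taken at the wandering stage of the 3rd instar from larvae raised at 25 °C and pooled from 10 larvae for each array, and the labels call the 3 samples of a strain biological replicates. DSas-4 larvae carry the label "DSas-4 mutant", w67 larvae are labelled as a white wild type, and OregonR larvae as a wild type. The allele, the genetic background, any balancer chromosome and the sex of the larvae are not given in the sources used here. Each array measured a mixture of neurons, glia, dividing precursors and disc epithelium, so fewer cells of a type and less RNA per cell cannot be told apart.

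Centrioles are small cylinders of microtubules that recruit pericentriolar material to form centrosomes, the main sites of microtubule growth in most dividing animal cells, and that also template cilia. Sas-4 is needed to build the centriole wall, and flies without it are known to complete much of their development with cells that form spindles without centrosomes. In larval brains, centrosomes help to orient the asymmetric divisions of neuroblasts, and in imaginal discs they take part in the planar division of the epithelium.

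The platform gives a single log2 level per probe set, which says how one gene differs between arrays and not how it ranks against another gene. Correlations between replicates of a strain were 0.988 or higher across genes. Within a strain, the typical (median) SD was 0.088 in DSas-4, 0.08 in w67 and 0.073 in OregonR. The lowest value on an array was 2.1741 in DSas-4 and in w67 and 2.1799 in OregonR, and the median level of the tested genes lay between 8.81 and 8.83 in DSas-4, 8.81 and 8.86 in w67 and 8.72 and 8.73 in OregonR. The median difference of all tested genes was therefore -0.01 against w67 and 0.08 against OregonR. Separate normalization runs are inferred only from the lowest values, and the labels do not name them. If there were such runs, their effect and that of the strain cannot be told apart in the OregonR comparison. Markers of the labelled tissue were measured in every strain. The neuronal gene elav stood at 12.09, 11.97 and 12.21 in DSas-4, against 12.06, 11.70 and 12.07 in w67 and 12.81, 13.05 and 12.88 in OregonR. The leg and wing disc gene Dll stood at 9.90, 9.93 and 10.04 in DSas-4, against 9.92, 9.69 and 10.03 in w67 and 9.86, 10.00 and 9.67 in OregonR.

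The targeted gene bore out the labels. Sas-4 had log2 levels of 4.66, 4.77 and 5.10 in DSas-4, against 7.44, 7.62 and 7.79 in w67 and 7.70, 7.76 and 7.58 in OregonR. The DSas-4 arrays lay more than 2 log2 units below every wild-type array. The difference was -2.77 against w67 (95% interval -3.06 to -2.49) and -2.84 against OregonR, with limma adjusted p-values of 2.25e-08 and 1.64e-08. Sas-4 also stood below DSas-6, whose mean was 7.59, and SakOE, a strain labelled as overexpressing the kinase Sak, whose mean was 7.5.

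Other genes of the centriole held 1 further call. Of 20 tested genes for centrioles and pericentriolar material, 2 (10.0%) fell, next to 1.53% of all tested genes that fell. They were the mutated gene itself, whose fall the 10.0% includes by design, and ana2. None rose, and the median differences from w67 and OregonR were -0.01 and 0.12, next to -0.01 and 0.08 over all genes. The duplication factor ana2 stood at 6.49, 7.05 and 6.92 in DSas-4, against 7.28, 7.37 and 7.64 in w67 and 7.24, 7.19 and 7.29 in OregonR. The highest DSas-4 array lay below the lowest wild-type array, and the smaller of the differences was -0.42 (limma, adjusted p = 0.0269 against w67 and 0.0462 against OregonR). That call was lost without DSas-4 replicate 1 (-0.26) or 3 (-0.47), without w67 replicate 2 (-0.42) or 3 (-0.42), and without OregonR replicate 1 (-0.42), 2 (-0.45) or 3 (-0.40). It was also lost with no filter and with only the arrays of the groups compared (limma, adjusted p = 0.0918 and 0.067). Losses listed for other genes below leave out such changes of the filter or fit unless they are named. Sas-6, the cartwheel protein that acts with Sas-4, averaged 7.62 in DSas-4, against 7.73 in w67 and 7.65 in OregonR. The centriolar scaffold gene asl averaged 8.54 in DSas-4, against 8.54 in w67 and 8.42 in OregonR. For Grip91, of the γ-tubulin complex, the means were 8.85 in DSas-4, against 8.68 in w67 and 8.64 in OregonR. None of these 3 was called.

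Over all tested genes, 230 (3.3%) were called in DSas-4 against both wild types, of which 123 (1.76%) rose and 107 (1.53%) fell. With the median of every array set equal, 113 rose and 126 fell, and after quantile normalization 105 rose and 138 fell. Against w67 alone 321 genes (4.6%) passed, 137 higher (1.96%) and 184 lower (2.64%), and against OregonR alone 1736 (24.9%), 1427 higher (20.5%) and 309 lower (4.43%). The OregonR split became 601 higher and 650 lower after centring and 571 higher and 721 lower after quantile normalization. Between w67 and OregonR themselves, 1095 genes (15.7%) passed.

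Most of the called differences were small. The smaller of the differences was under 0.5 log2 units for 120 of the 230 genes and at least 1 for 44. For 226 of the called genes all 3 DSas-4 arrays lay beyond all 6 wild-type arrays, which was true of 10.8% of all tested genes (7.13% above and 3.71% below). The called genes were chosen by differences on these same arrays, so this separation follows largely from the choice and is a description only. Of the 230 called genes 26 also differed between w67 and OregonR, as did 15.7% of all tested genes. The median SD over the DSas-4 arrays was 0.11 for called genes, against 0.09 for all tested genes, and 12 called genes had an SD above 0.5 in DSas-4.

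**Figure D1:**
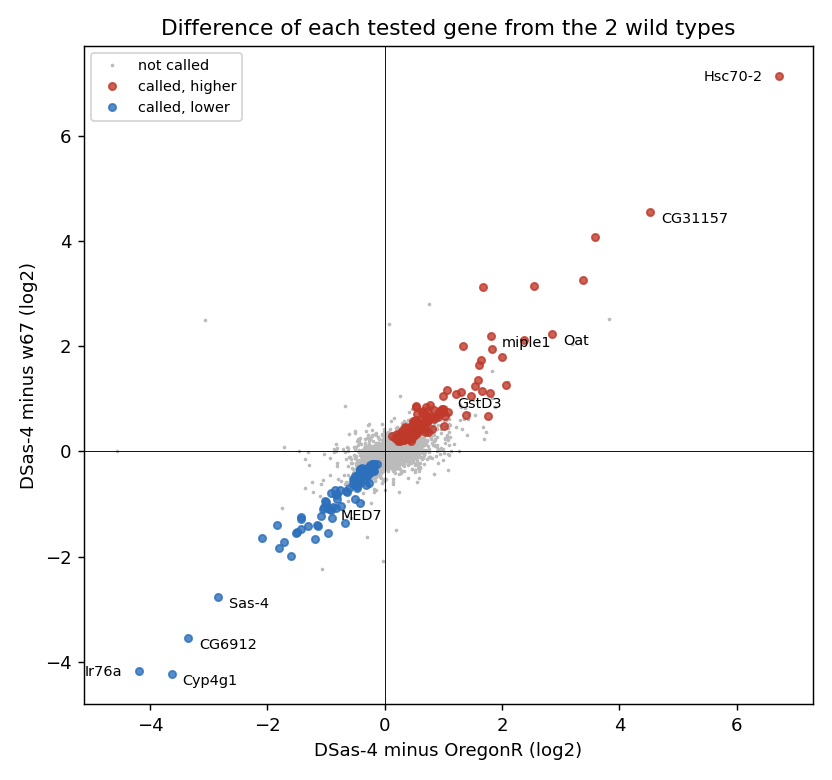
Each point is 1 of the 6973 tested genes, with its log2 difference between DSas-4 and OregonR on the horizontal axis and between DSas-4 and w67 on the vertical axis; red points are the 123 genes called higher and blue points the 107 called lower. Hsc70-2, drawn at its listed values although both wild types lie under the filter level, is the farthest point at the upper right, and Ir76a, Cyp4g1, CG6912 and Sas-4 form the lower end.

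The widest gap was that of Hsc70-2, a member of the Hsp70 family of chaperones. Hsc70-2 had log2 levels of 9.49, 9.36 and 9.37 in DSas-4, against 2.18, 2.27 and 2.36 in w67 and 3.41, 2.32 and 2.31 in OregonR. Both wild types, and DSas-6 (mean 2.18) and SakOE (2.18), stayed under the filter level of 4, so the increase is a lower bound, at least 42.5-fold. Hsc70-2, CG31157, CG31287 and GILT3 passed the filter only through the DSas-4 arrays and so had to differ, and their values are given as a description. The other 3 tested members of the family, which fold proteins in the cytosol, the endoplasmic reticulum and mitochondria, were not called. Hsc70-3 averaged 13.52 in DSas-4, against 13.46 in w67 and 13.54 in OregonR. Hsc70-4 averaged 14.67 in DSas-4, against 14.57 in w67 and 14.53 in OregonR. The Hsc70-5 mean was 11.65 in DSas-4, against 11.64 in w67 and 11.48 in OregonR.

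Genes of the cytochrome P450 and glutathione transferase families moved in both directions. Of 22 tested cytochrome P450 genes 2 rose and 3 fell, and of 22 tested glutathione transferase genes 2 rose and 2 fell. These are 22.7% and 18.2% of the tested members, next to 3.3% of all tested genes. Both families were chosen with earlier results of these data known, so the shares only describe them. Their medians stayed near those of all genes, at 0.01 against w67 and 0.08 against OregonR for the P450 genes and -0.03 and 0.06 for the transferases. The P450 gene Cyp9f2 stood at 7.74, 7.84 and 7.81 in DSas-4, against 6.31, 6.26 and 6.75 in w67 and 6.20, 6.0 and 6.42 in OregonR (2.56-fold, limma adjusted p = 0.000149 and 2.14e-05). Cyp4e2 stood at 9.94, 8.97 and 9.18 in DSas-4, against 8.42, 7.90 and 8.35 in w67 and 8.14, 8.07 and 7.96 in OregonR. In both genes the lowest DSas-4 array was above the highest wild-type array.

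The P450 genes that fell were Cyp4g1, which makes cuticular hydrocarbons in oenocytes, and the neighbouring pair Cyp4p1 and Cyp4p2. Cyp4g1 was uneven between the mutant samples, at 2.82, 6.05 and 3.69 in DSas-4, against 8.15, 8.82 and 8.31 in w67 and 8.72, 7.29 and 7.45 in OregonR. Its smaller difference was -3.63 (limma, adjusted p = 0.0011 against w67 and 0.00154 against OregonR), and SakOE averaged 3.75. Cyp4p1 stood at 6.33, 7.18 and 7.36 in DSas-4, against 8.45, 8.69 and 8.74 in w67 and 8.32, 8.04 and 8.07 in OregonR. Cyp4p2 stood at 8.72, 9.21 and 9.50 in DSas-4, against 10.62, 10.69 and 10.80 in w67 and 10.14, 10.01 and 10.18 in OregonR. DSas-4 replicate 1 was the lowest array for all 3 of these genes, and no DSas-4 array reached a wild-type array.

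Among the glutathione transferases, which conjugate glutathione to electrophiles, GstD3 was among the most even of the changed genes. GstD3 stood at 11.08, 11.18 and 11.11 in DSas-4, against 9.88, 9.95 and 10.04 in w67 and 10.13, 10.07 and 9.99 in OregonR (2.08-fold, limma adjusted p = 5.97e-08 and 1.33e-07). Its neighbour GstD1 stood at 13.93, 13.76 and 13.72 in DSas-4, against 13.23, 13.27 and 13.30 in w67 and 13.27, 13.25 and 13.17 in OregonR. GstE13 fell, at 8.56, 9.92 and 9.31 in DSas-4, against 10.35, 10.36 and 10.39 in w67 and 10.34, 10.32 and 10.32 in OregonR. The 6 wild-type arrays for GstE13 lay within 0.1 log2 units of each other, while the DSas-4 arrays spread over more than 1. GstT3 fell 1.16-fold.

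Further enzymes and binding proteins with large differences were spread over several pathways. Ugt302K1, 1 of 6 tested UDP-glycosyltransferases and the only one called, stood at 9.54, 9.47 and 9.59 in DSas-4, against 7.92, 7.64 and 7.68 in w67 and 7.46, 7.51 and 7.62 in OregonR. MtnA, a metallothionein that binds copper and other metals, stood at 12.96, 13.02 and 12.98 in DSas-4, against 11.78, 11.80 and 12.06 in w67 and 11.05, 11.34 and 11.20 in OregonR (2.15-fold). Irc, a catalase of the immune response, fell 3.03-fold, to 5.84, 5.98 and 6.21 in DSas-4, against 8.15, 8.23 and 7.64 in w67 and 7.67, 7.77 and 7.40 in OregonR. It was the only called gene of 9 tested peroxidases and superoxide dismutases, whose medians were -0.04 and 0.03. Cat, the main catalase, averaged 10.80 in DSas-4, against 11 in w67 and 11.16 in OregonR, and was not called.

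Intermediary metabolism was represented by single genes. Oat, the ornithine aminotransferase of arginine and proline metabolism, stood at 8.44, 7.98 and 7.81 in DSas-4, against 5.82, 6.0 and 5.71 in w67 and 5.76, 4.62 and 5.29 in OregonR, and was the only called gene of 18 tested for amino acid and nitrogen metabolism (medians 0.04 and 0.10). The Oat mean was 8.12 in SakOE and 5.58 in DSas-6. Of 17 tested genes of fatty acid and hydrocarbon synthesis and storage only Cyp4g1 was called (medians -0.07 and 0.04). GILT3, of a family of lysosomal thiol reductases, stood at 7.21, 6.45 and 7.23 in DSas-4, against 3.95, 3.54 and 3.62 in w67 and 3.59, 3.40 and 3.77 in OregonR, at least 7.80-fold higher. It was the only called gene among 27 of lysosome and autophagy (medians -0.05 and 0.01). sfl, the enzyme that starts N-sulphation of heparan sulphate, rose 3.13-fold, to 5.76, 6.46 and 6.20 in DSas-4, against 4.38, 4.08 and 4.71 in w67 and 4.36, 4.44 and 4.66 in OregonR.

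**Figure D2:**
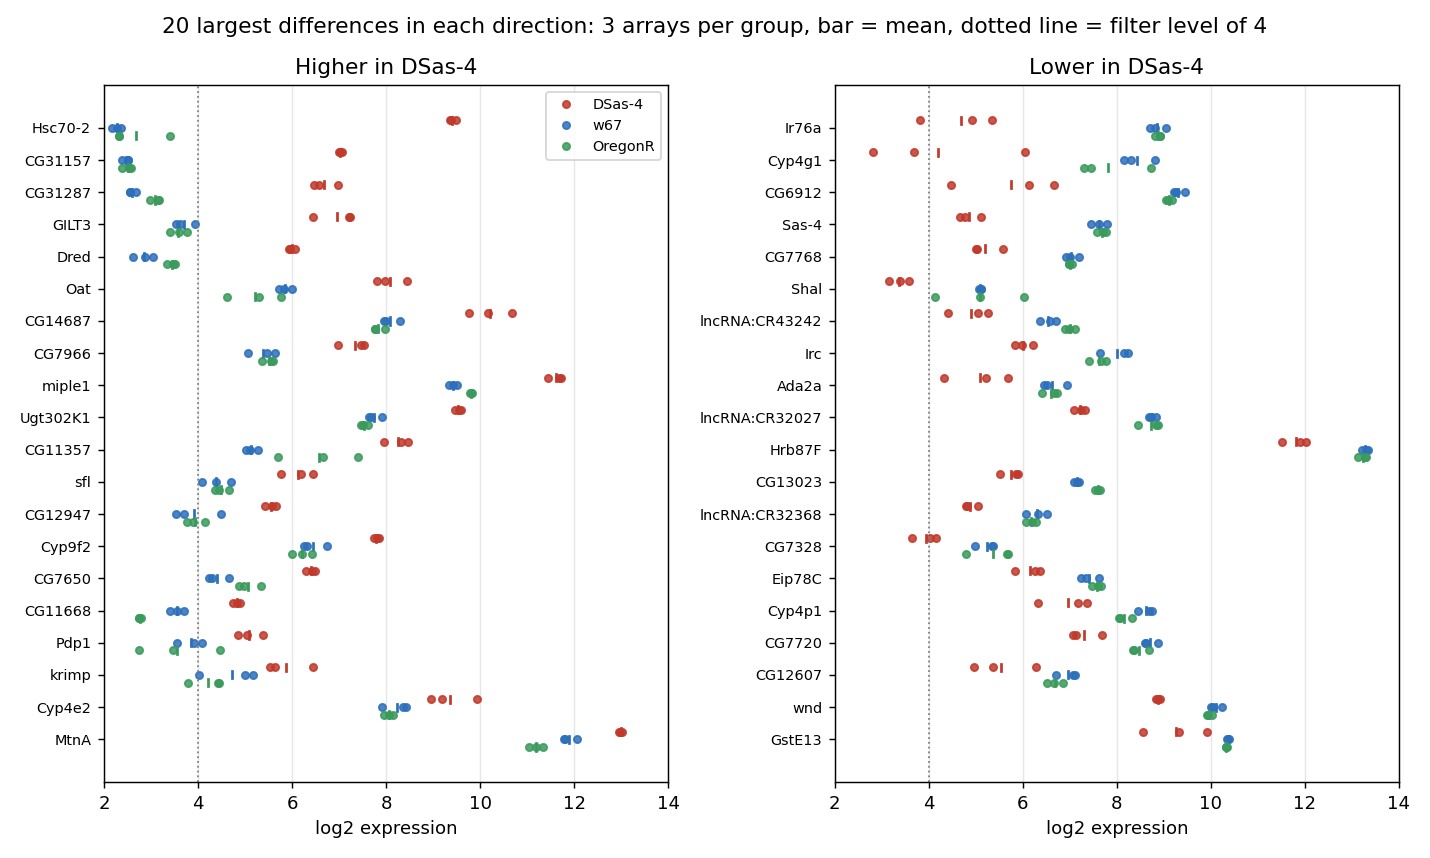
Log2 expression on each array (points) and group mean (bar) for the 20 called genes farthest from the nearer wild type in each direction, DSas-4 in red, w67 in blue and OregonR in green; the dotted line is the filter level of 4. The DSas-4 points are separate from both wild types for each gene drawn, closely grouped for CG31157, wnd and MtnA, and widely spread for Ir76a, Cyp4g1, CG6912 and GstE13.

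Signalling genes were changed 1 at a time. miple1, a secreted heparin-binding growth factor of the midkine and pleiotrophin family, stood at 11.73, 11.67 and 11.44 in DSas-4, against 9.50, 9.43 and 9.34 in w67 and 9.78, 9.83 and 9.81 in OregonR (3.5-fold, limma adjusted p = 2.25e-08 and 1.06e-07). Its paralogue miple2 averaged 12.37 in DSas-4, against 12.56 in w67 and 12.35 in OregonR, and was not called. Of 28 tested growth factors and receptors, miple1 rose and Krn, a ligand of the EGF receptor, fell 1.19-fold. These 2 are 7.14% of the tested members, next to 3.3% of all tested genes. The Krn call was lost without DSas-4 replicate 3 (-0.20), w67 replicate 2 (-0.26) or OregonR replicate 2 (-0.21). The medians of these 28 were 0.05 and 0.19. wnd, a kinase that starts a stress and axon injury cascade through JNK, stood at 8.83, 8.88 and 8.92 in DSas-4, against 10.0, 10.24 and 10.05 in w67 and 9.95, 9.92 and 10.02 in OregonR, 2.13-fold lower. Its probe set may match other transcripts. Eip78C, a nuclear receptor induced by ecdysone, stood at 6.37, 5.82 and 6.26 in DSas-4, against 7.62, 7.25 and 7.34 in w67 and 7.59, 7.66 and 7.47 in OregonR.

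In the pattern recognition and immune class, GNBP2, a relative of the Gram-negative binding proteins, rose at least 2.06-fold. It stood at 5.03, 4.97 and 5.14 in DSas-4, against 3.79, 4.18 and 4.0 in w67 and 3.66, 3.5 and 3.56 in OregonR. Spn88Ea, a serpin that restrains the Toll pathway, was the only called gene of 10 tested serpins (1.24-fold higher; medians 0.04 and 0.02).

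A chemoreceptor gene and an ion channel gene fell. Ir76a, of the ionotropic receptor family of chemoreceptors, stood at 3.81, 5.34 and 4.93 in DSas-4, against 8.82, 9.04 and 8.70 in w67 and 8.81, 8.93 and 8.91 in OregonR. Its mean was 8.92 in DSas-6 and 8.85 in SakOE, so that DSas-4 stood alone among the 5 strains. The Ir76a probe set may match other transcripts, and it was the only tested member of its family. Shal, an A-type potassium channel, stood at 3.38, 3.15 and 3.57 in DSas-4, against 5.07, 5.11 and 5.10 in w67 and 5.09, 6.03 and 4.13 in OregonR, at least 2.12-fold lower. The Shal call was lost with only the groups compared (limma, adjusted p = 0.0514) and with the filter set at 6. The other 12 of 13 tested ion channel genes were not called (medians -0.04 and 0.11), and neither was any of 31 neuropeptide and processing genes in the limma fit (medians -0.06 and 0.13; 1 with an unadjusted p under 0.05 in both comparisons).

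MED7 and TfIIFbeta, which lie on either side of Cap-H2 among the tested genes of 3R, both fell. MED7, a subunit of the Mediator complex that links activators to RNA polymerase II, stood at 9.65, 9.66 and 9.60 in DSas-4, against 10.69, 10.74 and 10.75 in w67 and 10.49, 10.65 and 10.59 in OregonR (1.92-fold, limma adjusted p = 2.25e-08 and 7.59e-08). TfIIFbeta, a subunit of the initiation factor TFIIF, stood at 10.34, 10.22 and 10.34 in DSas-4, against 11.34, 11.36 and 11.36 in w67 and 11.26, 11.38 and 11.39 in OregonR (2.06-fold). The DSas-4 arrays of each gene fell within 0.15 log2 units of each other. The SakOE means were 9.57 for MED7 and 10.20 for TfIIFbeta, and those of DSas-6 were 10.60 and 11.32. MED11 stood at 9.54, 9.55 and 9.49 in DSas-4, against 10.06, 10.34 and 10.29 in w67 and 10.04, 10.17 and 10.20 in OregonR. MED4 fell 1.24-fold. Of 26 tested Mediator genes, a list drawn up after the values were seen, these 3 (11.5%) fell and none rose, next to 1.53% of all tested genes that fell, and the medians of the 26 were -0.04 and 0.03.

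Other nuclear genes with marked changes act in RNA processing, chromatin and chromosome structure. Hrb87F, an hnRNP protein that binds nascent RNA, stood at 11.51, 11.90 and 12.02 in DSas-4, against 13.35, 13.22 and 13.29 in w67 and 13.13, 13.31 and 13.27 in OregonR (2.68-fold, limma adjusted p = 8.44e-07 and 9.33e-07). Cap-H2, a subunit of condensin II, stood at 6.42, 6.79 and 6.88 in DSas-4, against 7.71, 7.63 and 7.92 in w67 and 7.80, 7.53 and 7.67 in OregonR. Ada2a, an adaptor of the ATAC histone acetyltransferase complex, stood at 4.32, 5.69 and 5.22 in DSas-4, against 6.50, 6.44 and 6.94 in w67 and 6.66, 6.41 and 6.72 in OregonR. Of 24 tested acetyltransferase complex genes, Ada2a fell and Spt20 and wda, both of the SAGA complex, rose 1.45-fold and 1.34-fold (medians -0.04 and 0.04). These 3 are 12.5% of the tested members, next to 3.3% of all tested genes. The list was chosen with earlier results of these data known. The Spt20 call was lost without DSas-4 replicate 3 (0.35), w67 replicate 1 (0.53) or OregonR replicate 1 (0.42) or 3 (0.55), and after centring (0.44) and quantile normalization (0.39). The wda call was lost without DSas-4 replicate 2 (0.42) or 3 (0.33), w67 replicate 1 (0.32), 2 (0.46) or 3 (0.47), or OregonR replicate 3 (0.42).

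Of 12 tested long non-coding RNAs 3 (25.0%) fell and none rose, next to 1.53% of all tested genes that fell, and the family's medians were -0.16 and -0.06. This family, too, was chosen with earlier results of these data known, so the share is a description only. lncRNA:CR43242 stood at 4.41, 5.26 and 5.04 in DSas-4, against 6.70, 6.57 and 6.37 in w67 and 6.89, 6.99 and 7.11 in OregonR. lncRNA:CR32027 stood at 7.33, 7.09 and 7.24 in DSas-4, against 8.72, 8.68 and 8.83 in w67 and 8.46, 8.83 and 8.87 in OregonR. lncRNA:CR32368 stood at 4.79, 5.05 and 4.81 in DSas-4, against 6.52, 6.32 and 6.06 in w67 and 6.08, 6.20 and 6.28 in OregonR. The functions of these transcripts are not given in the tables used here. A second probe set of lncRNA:CR43242 differed in the same direction, by -1.0 and -1.22.

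Of 19 tested genes of the piRNA pathway, which silences transposons mainly in the germ line, 3 (15.8%) rose and none fell, next to 1.76% of all tested genes that rose, with medians of 0.04 and 0.11; this list, too, was drawn up after the values were seen. Veneno, whose mosquito counterpart is a Tudor-domain protein of piRNA production, stood at 9.45, 9.31 and 9.43 in DSas-4, against 8.92, 8.73 and 8.85 in w67 and 9.06, 8.82 and 8.82 in OregonR. del, which acts in the transcription of piRNA clusters, stood at 7.72, 7.82 and 7.43 in DSas-4, against 7.02, 7.19 and 6.68 in w67 and 6.41, 6.32 and 6.09 in OregonR. krimp, a Tudor-domain protein, stood at 5.63, 6.45 and 5.54 in DSas-4, against 5.17, 5.01 and 4.01 in w67 and 3.78, 4.43 and 4.46 in OregonR. The krimp call was lost without DSas-4 replicate 1 (1.27), 2 (0.86) or 3 (1.31), w67 replicate 2 (1.29) or 3 (0.79), or OregonR replicate 2 (1.15) or 3 (1.15), and after centring (1.16) and quantile normalization (1.13); with the replicate block its limma adjusted p was 0.0518.

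Of 4 tested genes of the circadian clock, also listed after the values were seen, Pdp1 rose and cyc, which pairs with Clock to drive the loop, fell 1.22-fold; the medians were 0.03 and 0.24. cyc was even, at 9.42, 9.40 and 9.39 in DSas-4, against 9.73, 9.73 and 9.76 in w67 and 9.62, 9.69 and 9.76 in OregonR. Pdp1, a transcription factor of the clock, stood at 4.85, 5.39 and 5.04 in DSas-4, against 3.91, 3.55 and 4.08 in w67 and 4.46, 3.48 and 2.75 in OregonR. The Pdp1 call was lost without any 1 of the DSas-4 arrays (1.36, 1.10 and 1.27 without replicates 1, 2 and 3), without any 1 of the w67 arrays (1.28, 1.10 and 1.36), without OregonR replicate 2 (1.24) and after quantile normalization (1.20). With the replicate block the limma adjusted p of Pdp1 was 0.0574.

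The remaining lists held few calls or none. Of 18 tested basement membrane and matrix genes trol, the fly perlecan, rose 1.64-fold (medians 0.05 and 0.22), and 2 further trol probe sets differed in the same direction. The trol call was lost without DSas-4 replicate 1 (0.56) or 3 (0.59), w67 replicate 1 (0.71), 2 (0.69) or 3 (0.71), or OregonR replicate 1 (0.73) or 3 (0.59), and after centring (0.62) and quantile normalization (0.62). Of 69 mitochondrial ribosomal protein genes mRpS18A fell 1.46-fold (medians -0.05 and -0.02). No gene was called in limma among 19 of septate junctions and epithelial polarity (medians 0.12 and 0.23; 4 with an unadjusted p under 0.05 against both), 35 cytosolic ribosomal proteins (-0.02 and 0.01; 1) or 11 cuticle proteins (0.15 and 0.38; 1). The same held for 6 odorant-binding proteins (0.02 and 0.16), for the only tested gustatory or odorant receptor (-0.01 and -0.09) and for the only tested antisense RNA (-0.19 and -0.06), each with 0 at an unadjusted p under 0.05. Among 2210 genes known only by a CG number, 47 rose and 43 fell, with medians of -0.03 and 0.06. The called genes are 4.07% of them, near the 3.3% of all tested genes.

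Several of those numbered genes had large and even differences. CG31157 stood at 7.01, 7.05 and 7.02 in DSas-4, against 2.38, 2.52 and 2.52 in w67 and 2.54, 2.39 and 2.58 in OregonR, at least 8.16-fold higher. CG31287 stood at 6.47, 6.57 and 6.98 in DSas-4, against 2.55, 2.68 and 2.55 in w67 and 2.98, 3.15 and 3.16 in OregonR, at least 6.38-fold higher. CG7650 stood at 6.42, 6.30 and 6.48 in DSas-4, against 4.65, 4.31 and 4.24 in w67 and 5.35, 4.87 and 4.97 in OregonR, and 2 further probe sets of it differed by 2.81 and 2.05 and by 2.93 and 2.62. On the lower side CG13023 stood at 5.86, 5.89 and 5.52 in DSas-4, against 7.15, 7.09 and 7.19 in w67 and 7.53, 7.61 and 7.63 in OregonR. CG6912 varied widely, at 4.48, 6.66 and 6.13 in DSas-4, against 9.21, 9.25 and 9.45 in w67 and 9.10, 9.16 and 9.04 in OregonR, and averaged 4.52 in SakOE. In all, 17 called genes had 24 further probe sets past the filter, of which 16 differed in the same direction from both wild types and 11 did so with unadjusted limma p-values under 0.05.

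The called genes were concentrated on chromosome 3, the chromosome that carries Sas-4 on its right arm. Gene positions were taken from the RefSeq table of Release 6, used here for gene order only, and gave an arm for 6956 tested genes. Of the 230 called genes 181 (78.7%) lay on chromosome 3, which holds 44.4% of the tested genes. Of the 3099 tested genes on chromosome 3, 93 rose and 88 fell, 5.84% in all, against 48 of 3857 genes (1.24%) elsewhere. The arms 3L and 3R were alike, with 78 (5.69%) and 103 (5.96%) called genes, while X had 16 (1.36%), 2L 11 (0.894%) and 2R 18 (1.29%). Chromosome 4, with 56 tested genes, had 3 (5.36%).

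The same share was larger among the large changes. Of the 44 called genes with a difference of at least 1 log2 unit, 38 lay on chromosome 3, among them Hsc70-2, CG31157, CG31287, GILT3, Oat, miple1, Ir76a, CG6912, Sas-4, Hrb87F and wnd. Cyp4g1 on X and lncRNA:CR43242 on 2L were among the 6 that did not. Of the large changes, those of Hsc70-2, CG31157, CG31287 and GILT3 are in genes that passed the filter only through the DSas-4 arrays. Between w67 and OregonR no such concentration was seen, since 13.2% of genes on chromosome 3 and 17.8% of the others passed the threshold. In the single comparisons of DSas-4, 7.52% of genes on chromosome 3 and 2.26% of the others passed against w67. Against OregonR the percentages were closer, at 26.8% and 23.3%. Of the genes that passed, 72.6% against w67 and 47.9% against OregonR lay on chromosome 3. Under the 18 alternatives the share of called genes on chromosome 3 ranged from 73.5% to 84.3%. In every DSas-4 array the mutated gene came together with the chromosome 3 that carries it, so effects of the lost gene and of other differences on that chromosome cannot be told apart.

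**Figure D3:**
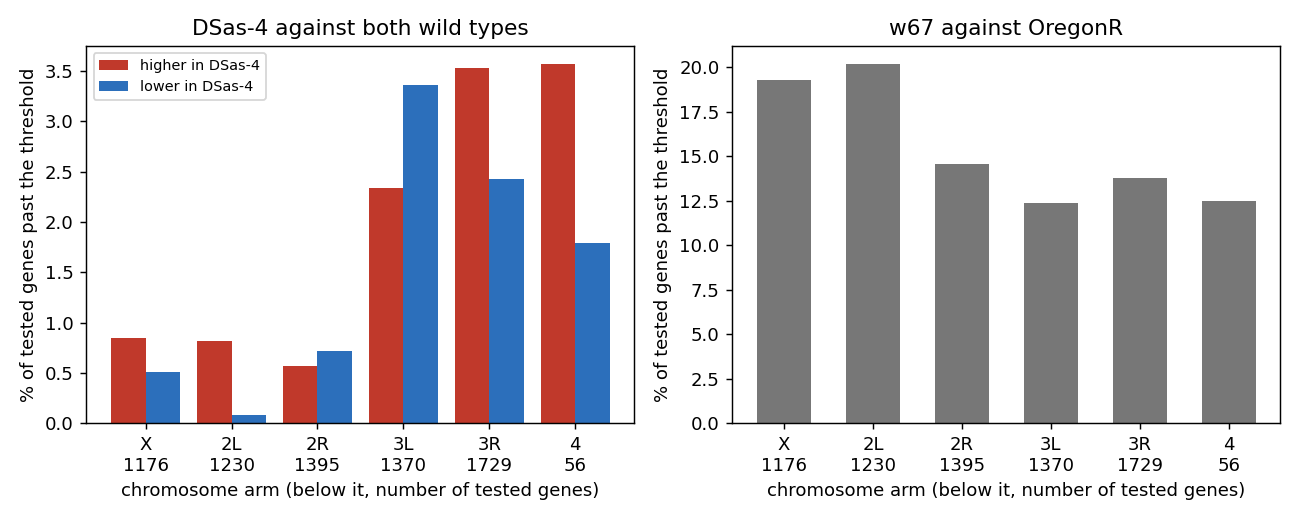
Left, the percentage of tested genes on each chromosome arm called higher (red) or lower (blue) in DSas-4 against both wild types; right, the percentage past the threshold between w67 and OregonR, on its own scale. Both arms of chromosome 3, and the 56 genes of chromosome 4, stand above X, 2L and 2R on the left, and on the right 3L (12.4%) is the lowest bar.

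Along chromosome 3 the called genes were spread over both arms, with denser stretches. In successive bins of 100 tested genes, 3R reached 17% from CG12945 to Dtd and 14% from CG12321 to Arc42, where 12 of the 14 called genes fell. The bin from grsm to CG33332 on 3R had 10 genes that rose and 1 that fell. On 3L the stretch from Gbs-76A to Las had 16%, with 8 up and 8 down. The bins from spok to Snm1 and from Wsck to CG5039 on 3R had 0 called genes. Among bins of 100 genes off chromosome 3 the highest held 5%, from Socs44A to Camta on 2R, and the last, shorter bin of 2L had 3 called of 30. Of the 100 tested genes that flank Sas-4, 50 on each side, 10 (10.0%) were called, 7 higher and 3 lower. On the whole of 3R 5.96% were called, and among all tested genes 3.3%.

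**Figure D4:**
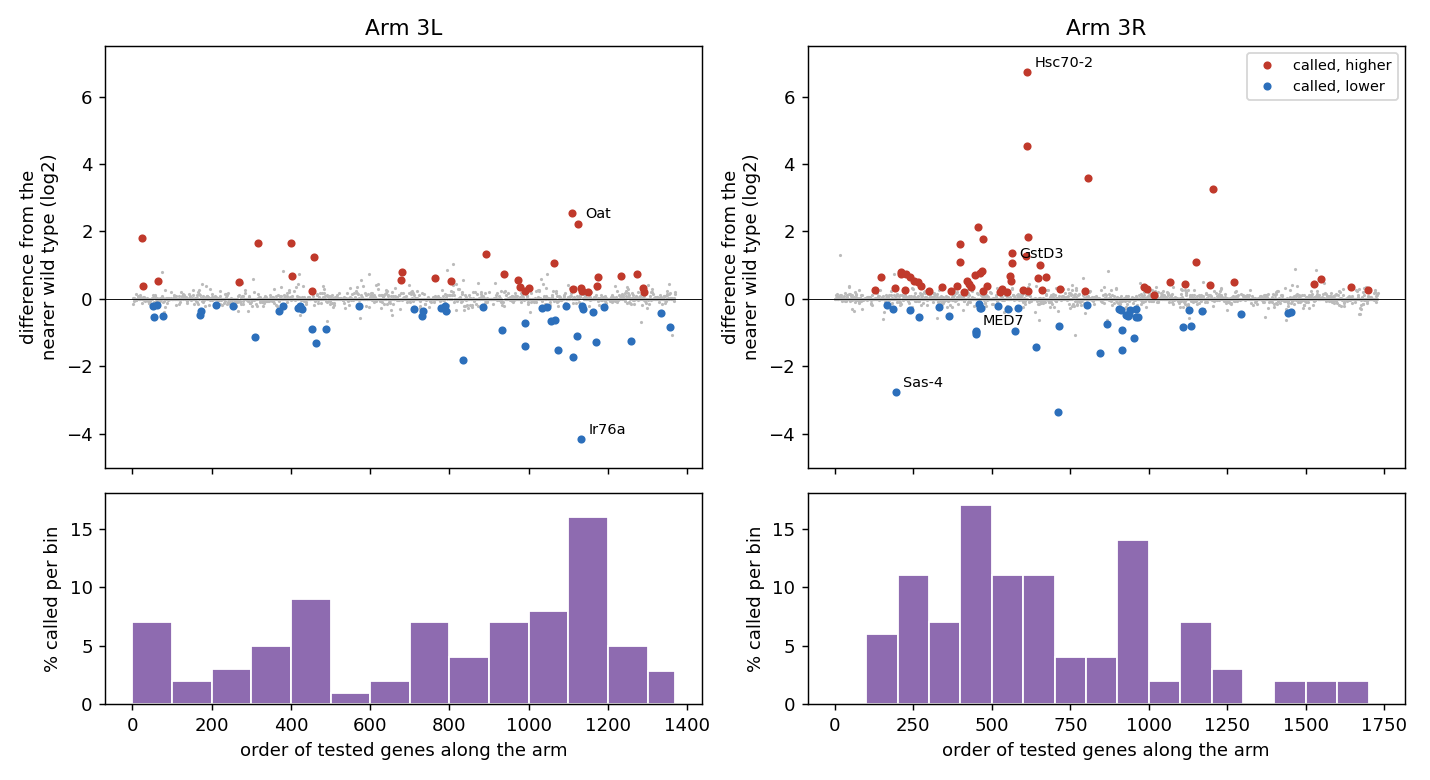
Tested genes of arms 3L and 3R in their order along the arm: above, the log2 difference of DSas-4 from the nearer wild type, with called genes in red (higher) and blue (lower) and all others in grey; below, the percentage of called genes in successive bins of 100 genes. Called genes run along both arms, and the tallest bins hold 16% on 3L and 17% on 3R.

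Among the immediate neighbours of Sas-4 few differences passed. Of the 5 tested genes on each side only Fer1, a basic helix-loop-helix factor, was called, at 6.35, 6.25 and 6.35 in DSas-4, against 5.94, 6.05 and 5.96 in w67 and 5.72, 5.72 and 5.94 in OregonR. A second Fer1 probe set was also higher, by 0.36 and 0.71. The call was lost without any 1 of the DSas-4 arrays (0.31, 0.36 and 0.31 without replicates 1, 2 and 3) and without any 1 of the w67 arrays (0.31, 0.36 and 0.32). With the replicate block its limma adjusted p was 0.0638. MAGE and gfzf, the tested genes next to Sas-4 on either side, averaged 8.79 and 9.24 in DSas-4, against 8.69 and 9.21 in w67 and 8.58 and 9.08 in OregonR. The differences of sas, lap, Noc3, CG10055, CG2656 and CG10098 from w67 lay between -0.10 and 0.16. CG31248 stood at 5.19, 4.09 and 4.50 in DSas-4, against 3.80, 3.54 and 4.25 in w67 and 3.07, 3.24 and 3.16 in OregonR, and passed against OregonR only (limma, adjusted p = 0.000844, against 0.0947 for w67). MAGE (0.21) and CG10055 (0.24) also passed against OregonR only, with limma adjusted p-values of 0.0349 and 0.0193, and their DSas-4 arrays all lay above all 6 wild-type arrays.

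Called genes also lay side by side. Among the tested genes of an arm there were 18 runs of adjacent called genes, with 43 genes in all, and 15 of the runs lay on chromosome 3. In 12 runs every member moved in the same direction. How many runs, and how many of a single direction, would arise if neighbours were unrelated was not tested. The longest runs had 4 members, and in 1 of them Hsc70-2, CG31157, CG7966 and pic, the fly DDB1, all rose. CG7966 stood at 7.54, 6.99 and 7.47 in DSas-4, against 5.65, 5.05 and 5.46 in w67 and 5.55, 5.36 and 5.59 in OregonR. The pic difference was only 0.23, and its call was lost without DSas-4 replicate 1 (0.21) or 3 (0.20), w67 replicate 1 (0.23) or 2 (0.20), or OregonR replicate 3 (0.21), and after centring (0.14) and quantile normalization (0.14).

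MED7, Cap-H2 and TfIIFbeta, described above, were adjacent and all fell, by 1.92-, 1.96- and 2.06-fold. GstD1 and GstD3 were adjacent and rose, as did CG12947 and MtnA, and Ada2a and CG18599 both fell. Cyp4p1 and Cyp4p2 on 2R were the pair off chromosome 3 with the largest differences in a single direction. Other runs were mixed. Ir76a fell beside TORIP, a torsin-interacting protein that rose 1.25-fold, Ccdc58 fell 1.16-fold and CG34116 rose 1.18-fold. The CG34116 call was lost without DSas-4 replicate 1 (0.21) or 2 (0.21), w67 replicate 1 (0.23) or 3 (0.23), or OregonR replicate 1 (0.19) or 3 (0.22), and after centring (0.14) and quantile normalization (0.13). Shal fell beside CG9231, which rose 1.23-fold, and lncRNA:CR43242 fell beside CG12567, which rose 1.57-fold.

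A further run on 3L held CG13023 and CG11905, which fell, and Ogdh, the oxoglutarate dehydrogenase of the citric acid cycle, which rose 1.19-fold. The CG11905 call was lost without DSas-4 replicate 2 (-0.54) or 3 (-0.71) or w67 replicate 1 (-0.64). That of Ogdh was lost without DSas-4 replicate 2 (0.22), w67 replicate 2 (0.26) or w67 replicate 3 (0.22), and after centring (0.20).

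The genes called in DSas-4 were next set against the altered strains of the series, with direct tests of DSas-4 against each. The 3 DSas-4 arrays that chose the genes enter these tests too, so the counts are a description, and the shares over all tested genes are no measure of what genes chosen in this way would give. Of the 230 called genes 187 (81.3%) also differed from DSas-6, the other mutant labelled as lacking centrosomes, in the same direction as from the wild types, 101 of them higher and 86 lower. For 42 the difference from DSas-6 did not pass, and 1 differed in the opposite direction. Over all tested genes 1744 (25%) passed between DSas-4 and DSas-6. Against SakOE, 135 of the 230 (58.7%) differed in the same direction, 10 in the opposite direction and 85 did not pass, and 2387 of all tested genes (34.2%) passed, or 21.8% after centring and 21.2% after quantile normalization. In all 117 differed from both of these strains in the same direction as from the wild types.

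Genes that set DSas-4 apart from all 4 other strains included Hsc70-2, CG31157, CG31287, GILT3, Ugt302K1, GstD3, Ir76a, Hrb87F, wnd and Sas-4. Hsc70-2, CG31157, CG31287 and GILT3 passed the filter only through the DSas-4 arrays and so had to differ here too. CG31287, for example, averaged 6.67 in DSas-4, against 2.18 in DSas-6 and 2.19 in SakOE. Ugt302K1 averaged 9.53 in DSas-4, against 7.66 in DSas-6 and 7.86 in SakOE. Of the 187 genes that differed from DSas-6, 159 (85%) lay on chromosome 3. Of the other 43 called genes 22 (51.2%) did, and Cyp4e2 (8.89 in DSas-6), CG11357 (7.67), trol (9.11) and ana2 (7.04) were among these 43. CG14687, by contrast, averaged 10.20 in DSas-4, against 7.84 in DSas-6 and 10.96 in SakOE.

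Markers of other tissues were measured because dissected brains and discs can carry attached cells, and their part in the results above was not tested. Of 10 tested markers of haemocytes, the circulating blood cells, and of the lymph gland, 1, Sr-CI, was called, 7 had unadjusted p-values under 0.05 in both limma comparisons and 6 stood above all 6 wild-type arrays on every DSas-4 array. The medians of the list were 0.64 and 1.19. The Sr-CI call was lost without DSas-4 replicate 1 (0.48) or 2 (0.74), w67 replicate 1 (0.64) or 2 (0.55), or any 1 of the OregonR arrays (0.67 each), and after quantile normalization (0.62). The mean of the list was 8.29, 6.94 and 6.78 in DSas-4, against 6.58, 6.09 and 6.50 in w67 and 6.06, 5.43 and 5.70 in OregonR, so that DSas-4 replicate 1 stood apart. The list's member of highest level, the scavenger receptor gene crq, whose probe set may match other transcripts, was not called and stood at 9.28, 9.28 and 9.14 in DSas-4, against 9.18, 9.14 and 8.61 in w67 and 8.99, 9.20 and 9.15 in OregonR. PPO1, a prophenoloxidase of crystal cells chosen after its values were seen, stood at 9.66, 8.26 and 7.13 in DSas-4, against 6.34, 4.51 and 6.65 in w67 and 5.96, 3.41 and 4.21 in OregonR. DSas-4 replicate 1 was more than 1 log2 unit above the mean of the other DSas-4 arrays for 53 tested genes, 0 of them called, and more than 1 below it for 15, of which 5 were called.

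Oenocytes, which lie under the larval epidermis, had 3 tested markers, whose mean was 6.18, 7.17 and 6.65 in DSas-4, against 8.13, 8.26 and 8.07 in w67 and 8.18, 7.74 and 7.60 in OregonR. Cyp4g1 was the only called gene of these, and the medians of the 3 were -0.26 and -0.06. The svp mean was 8.99 in DSas-4, against 8.94 in w67 and 8.81 in OregonR, and bond was not called either. For the ring gland, the endocrine gland attached to the brain, the mean of 6 markers was 7.81, 8.41 and 8.61 in DSas-4, against 8.77, 8.90 and 8.86 in w67 and 8.35, 8.65 and 8.74 in OregonR. The DSas-4 values overlap those of OregonR and not those of w67. Of these 6 only nvd, an enzyme of ecdysone synthesis, was called, and that call was lost without DSas-4 replicate 1 (-0.52), w67 replicate 2 (-0.83) or 3 (-0.83), or OregonR replicate 2 (-0.82) or 3 (-0.71). The 4 tested fat body markers averaged 6.86, 6.15 and 5.78 in DSas-4, against 6.17, 6.39 and 6.84 in w67 and 5.97, 6.02 and 5.47 in OregonR. Their only call, that of the lipophorin gene apolpp (0.28), was lost without any 1 of the DSas-4 arrays (0.29, 0.29 and 0.25 without replicates 1, 2 and 3), any 1 of the w67 arrays (0.24, 0.31 and 0.28) or OregonR replicate 2 (0.28), and after quantile normalization (0.26).

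No marker of gut, salivary gland or testis passed the filter, of 9, 8 and 6 listed. The filter asks for a log2 level of at least 4 on at least 3 arrays. A marker that reached this level on fewer arrays would not pass. Whether single arrays held cells of these tissues was therefore not tested. Of 5 glial markers (medians -0.09 and 0.20) only repo, a transcription factor of glia, was called, and it fell by 0.32, to 9.65 on all 3 DSas-4 arrays, against 10.21, 10.15 and 10.49 in w67 and 9.93, 9.96 and 10.0 in OregonR. Of 6 neuronal markers (medians -0.08 and 0.11) only Syn, the synapsin gene, was called, and it rose by 0.44. The Syn call was lost without DSas-4 replicate 2 (0.36) or 3 (0.37), w67 replicate 1 (0.39), 2 (0.49) or 3 (0.43), or OregonR replicate 3 (0.44), and with the replicate block (limma adjusted p = 0.0697). None was called among 6 of neuroblasts (0.05 and 0.16; 1 at an unadjusted limma p under 0.05), 6 of wing, leg and haltere discs (0.10 and 0.19; 1), 7 of the eye-antennal disc (-0.05 and 0.11; 0), 4 of trachea and epidermis (0.14 and 0.33; 1) and 2 of muscle (-0.05 and -0.06; 0). The neuroblast factor pros stood at 12.58, 12.20 and 12.69 in DSas-4, against 12.41, 12.25 and 12.21 in w67 and 12.20, 12.40 and 12.24 in OregonR. The eye and leg factor dac averaged 11.55 in DSas-4, against 11.49 in w67 and 11.22 in OregonR.

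**Figure D5:**
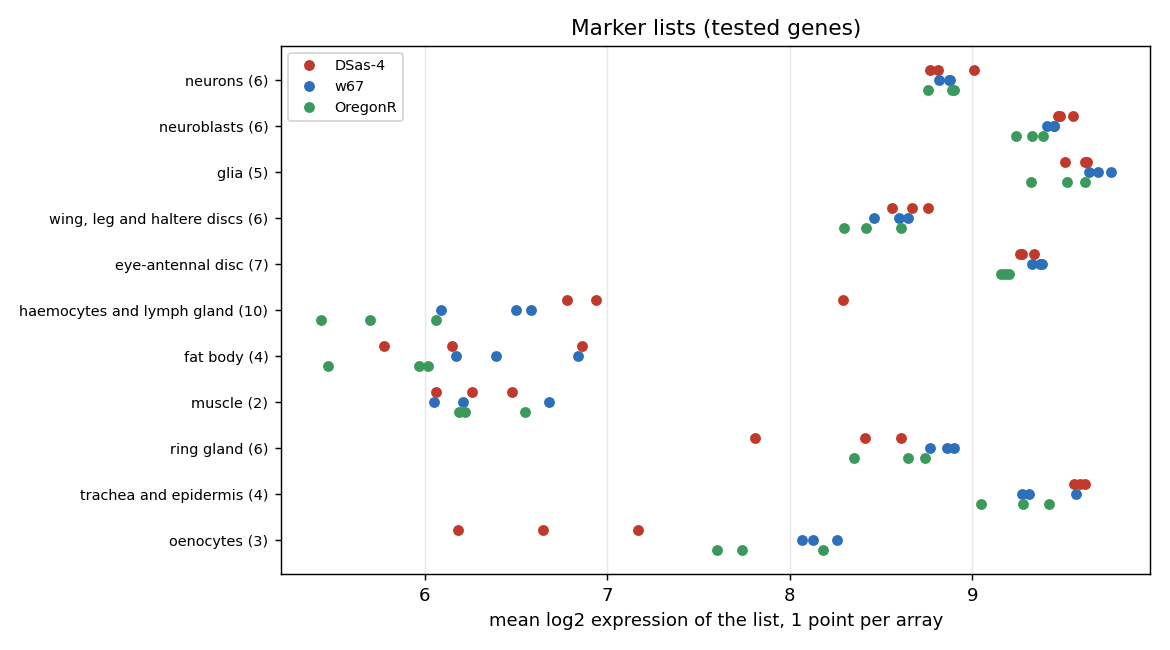
Mean log2 expression of each marker list on each array, 1 point per array, DSas-4 in red above w67 in blue and OregonR in green, with the number of tested genes in brackets. The haemocyte list shows DSas-4 replicate 1 far to the right at 8.29, the oenocyte list shows the DSas-4 arrays between 6.18 and 7.17, below the wild-type arrays, and the lists of the dissected tissues lie close together.

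Because w67 shares its lowest value with DSas-4, the genes that passed against w67 without being called were also examined. There were 91 such genes, 14 higher and 77 lower in DSas-4. Of these, 84 passed against w67 alone and 7 passed against OregonR in the opposite direction, and 66 had the same sign against OregonR without passing. path, a transporter of amino acids, stood at 10.32, 10.32 and 10.70 in DSas-4, against 7.73, 7.75 and 7.44 in w67 and 9.98, 10.30 and 8.81 in OregonR, where the highest OregonR array lies just below the lowest DSas-4 array. CG18213 and the Hedgehog receptor gene ptc were also higher than in w67, by 1.06 and 0.81, against 0.26 and 0.46 for OregonR. RpS5b, a paralogue of ribosomal protein S5, differed by 0.51 and 0.32. The ptc call was lost without DSas-4 replicate 1 (0.75) or 3 (0.84) or w67 replicate 2 (0.82) or 3 (0.71). That of RpS5b was lost without DSas-4 replicate 2 (0.56) or 3 (0.39), w67 replicate 1 (0.40) or 3 (0.46), or any 1 of the OregonR arrays (0.51 each), and had a limma adjusted p of 0.0681 with the replicate block.

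Lower than in w67 alone were Lectin-galC1, a galactose-binding lectin, CG6660, CG32572, CG13857 and CG8012. Lectin-galC1 stood at 2.48, 3.46 and 4.11 in DSas-4, against 4.14, 6.55 and 5.62 in w67 and 3.38, 3.30 and 3.47 in OregonR. Its values in DSas-4 overlap those of OregonR. CG32572 stood at 5.26, 5.25 and 5.71 in DSas-4, against 6.89, 6.95 and 6.85 in w67 and 5.53, 5.13 and 4.97 in OregonR, so that w67 stood apart from both. The differences of CG6660, CG13857 and CG8012 from w67 were -1.62, -1.26 and -1.23. All 4 calls other than that of CG32572 depended on single arrays. Lectin-galC1 was lost without DSas-4 replicate 1 (-1.65) or 2 (-2.14) or w67 replicate 2 (-1.53) or 3 (-2.0). CG6660 was lost without DSas-4 replicate 1 (-1.31) or 2 (-1.71), w67 replicate 2 (-1.38) or 3 (-1.46), or OregonR replicate 2 (-1.62) or 3 (-1.62). CG13857 was lost without DSas-4 replicate 1 (-1.26) or 3 (-1.03) or w67 replicate 1 (-1.31) or 2 (-1.16). CG8012 was lost without DSas-4 replicate 1 (-1.14) or 2 (-1.0) or w67 replicate 1 (-1.29) or 3 (-1.0).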

How the data were processed

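RNA of brains and imaginal discs was hybridised to single-colour Affymetrix Drosophila Genome 2.0 arrays, with 500 ng of total RNA per labelling per the labels. The authors used GCRMA and limma per the submitters' processing notes; their versions are not given in the sources used here. Since the file states no scale, the values deposited by the authors were read as log2, as GCRMA returns them and as their range allows. Of 18952 probe sets, 13647 had 1 gene symbol, 402 several and 4903 none; 13544 matched the RefSeq table of Release 6, which also gave the chromosome arm. No genome was used, so no coordinates or sequences are given.

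Among probe sets reaching 4 on at least 3 arrays, the one of highest mean stood for its gene. limma 3.58.1 in R 4.3.3 estimated a mean for every strain from all 15 arrays (lmFit, eBayes), two-sided, with Benjamini-Hochberg adjustment over the 6973 genes, and tested on simulated data. A fold change is computed from whichever wild type lies nearer to DSas-4. Where a strain stayed under 4 on all arrays, the fold is against 4 and a lower bound. Arrays have no read depth, so the number of arrays limits precision. Alternatives were 2 rescalings, 2 filters, the mean of all probe sets, a replicate block, a fit of only the groups compared, a moderated fit with trend, and leaving out each array. The losses listed for single genes cover left-out arrays, the rescalings and the replicate block. Losses under the other alternatives are left out unless named.

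Genes named are Sas-4, the 25 called genes farthest from the nearer wild type in each direction (of which the text gives a part), up to 4 called members of each list, the 5 in each direction past w67 only, called genes in the 10 runs of neighbours with the largest difference, the 5 tested genes on each side of Sas-4, and a marker of each cell type. The genes and lists were chosen with earlier results of these data known, and those for Mediator, the piRNA pathway and the circadian clock after the values were seen. Other list members named for comparison were chosen after their values were seen. No set test was made.

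Replicate numbers are shared between groups. Over the tested genes the deviations of same-numbered arrays from their group means correlated at 0.30, 0.18 and 0.12 between DSas-4 and w67, and at -0.15, -0.07 and -0.22 between DSas-4 and OregonR. Arrays of different numbers were not compared in this way, and the labels do not say what a number marks. Whether the numbers pair DSas-4 with w67 was therefore not tested. The counts and p-values in the text come from the fit without a block; the fit with the replicate block is an alternative.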

Additional observations from a re-analysis of the deposited data

Results flagged for a closer look

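Probe sets outside the tested genes also changed in DSas-4. Of 818 probe sets with no gene symbol that passed the filter, 35 passed against w67 and OregonR with the same sign, 27 higher and 8 lower, and of 216 with several symbols, 12 did so, 7 higher and 5 lower. Among the tested genes 230 of 6973 (3.3%) did so. The probe sets outside them name no single gene and were not analysed further here.

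In DSas-4, 7 genes passed the threshold against both wild types in opposite directions, so that the mutant lay between them. XRCC1, of single-strand break repair, averaged 6.22 in DSas-4, against 5.71 in w67 and 6.51 in OregonR. Gclc, which makes the precursor of glutathione, averaged 7.81 in DSas-4, against 8.10 in w67 and 7.56 in OregonR. Corp averaged 4.07 in DSas-4, against 3.68 in w67 and 4.58 in OregonR. The mean of strat was 9.0 in DSas-4, against 8.64 in w67 and 9.50 in OregonR, and that of CG6443 was 7.46 in DSas-4, against 7.17 in w67 and 7.67 in OregonR. CG32795 averaged 8.84 in DSas-4, against 9.42 in w67 and 8.29 in OregonR, and DIP-gamma 5.73 in DSas-4, against 6.02 in w67 and 5.52 in OregonR. They entered no count of called genes.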

How the results depend on the processing

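The count of genes called in DSas-4 against both wild types was 230 and kept within 1.5 times of it under every alternative, from 172 with only the groups compared to 243 after quantile normalization, and from 159 to 219 as each array was left out. Of the 230, 112 were called under all 17 alternatives, 131 in all 9 fits without an array and 202 after both rescalings; of the 44 with at least 1 log2 unit, 34 were called under all 17. Without DSas-4 replicate 1, 2 or 3, 58, 53 and 72 of the calls were lost. With centring and without DSas-4 replicate 1 together, an alternative chosen after seeing the data, 227 were called.

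The count against w67 was 204 to 295 as single arrays were left out (204 without w67 replicate 2). With the replicate number as a block in the fit of all 15 arrays, 288 genes passed against w67 and 204 were called against both. In fits of only the 6 arrays of DSas-4 and w67, added after seeing the data, 126 passed with the replicate block and 133 without it. Most of the drop from 321 was thus present without the block, and its cause was not tested. Of the 230 called genes, 96 passed against w67 in these 6 arrays with the block and 112 without it; Ada2a, GstD1, GstE13 and MED4 were among those that did not pass with it.

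Against OregonR the count was 1111 to 1650 without single arrays (1111 when either DSas-4 replicate 3 or OregonR replicate 3 was omitted). With no filter 5409 passed against OregonR, 5283 against DSas-6 and 6131 against SakOE, where probe sets at the lowest value, which differs between those strains, entered the test. Against DSas-6 the count was 1163 to 1614 without single arrays, 1145 with only the groups compared, 853 higher and 634 lower after centring and 749 and 678 after quantile normalization, next to 1400 and 344. Against SakOE it was 1637 to 2336 without single arrays and fell to 1518 (714 higher, 804 lower) after centring and 1479 (658 and 821) after quantile normalization, next to 1965 and 422. The Sas-4 difference stayed between -2.90 and -2.68 as arrays were left out. No named gene that had passed changed direction in any fit, while CG10098, CG2656, Noc3, gfzf and Dll, with differences near 0 and not called, took either sign. For the named genes 150 fits lost a call and 3 gained one, and the other 1597 left it as it was. The 1597 include fits of genes that had not passed in the main fit. Fits in which the filter at 6 removed a gene, such as Shal, krimp or Pdp1, are left out of these counts. The 3 arrays per strain limit what small differences can show, and probe sets under 4 have no measured level.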
